A study of Mus musculus with 4 samples.

Results

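Non-cycling mesothelial-like cells were examined among PDPN-high stromal cells sorted from mouse melanomas growing in the peritoneal cavity. The cells were chosen on measured values. A kept cell had 500 to 6000 genes and at most 10% mitochondrial UMIs. A member was a kept cell with no UMI of Ptprc or Pax3 and a UMI of at least 4 of 10 mesothelial genes (Msln, Upk3b, Upk1b, Lrrn4, Wt1, Krt19, Cldn10, Cldn15, Cldn3 and Gpm6a). A member also had at most 1 of 8 cell cycle genes (Mki67, Top2a, Cdk1, Birc5, Ube2c, Prc1, Tpx2 and Ccna2) and at most 2 of 8 hypoxic inflammatory genes (Serpinb2, Ereg, Lcn2, Ptgs2, Sema3a, Nos2, Apln and Hilpda). This gave 1975 members, 8.70% of 22691 kept cells and part of 24489 deposited cell barcodes.

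B16-F1-OVA melanoma cells were given intraperitoneally to Cxcl13-cre-tdTomato mice carrying R26R-eGFPflox on a C57Bl/6 host background, and tumors were taken at 14 days. All 4 groups shared these alleles, this tumor and this time, and CD45neg CD31neg PDPN-high cells were divided by reporter into tdTomato+ eGFPneg, tdTomato+ eGFP+, tdTomatoneg eGFP+ and tdTomatoneg eGFPneg populations. tdTomato follows the Cxcl13 transgene at the time of sorting and eGFP marks cells in which Cre has acted, so Cxcl13 itself is tied to the gate, as is Pdpn. Each population was 1 library, animals of both sexes were used, the animals' age and number per library are not given in the sources used here, the R26R line carries B6;129 in its name, and the labels call every population fibroblasts. With 1 library per population there was no replicate, no test across animals was possible and no p-value is given. Differences in sorting, library and population cannot be told apart.

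Mesothelium is the single layer of flattened cells that lines the peritoneal cavity and covers its organs. Its cells carry keratins, tight junctions and apical microvilli like an epithelium, yet descend from mesoderm and keep transcription factors of the coelomic lining such as Wt1. They secrete lubricants, regulate clot formation and removal on the cavity's surfaces, present antigen when stimulated by interferon and can take on fibroblast features after injury or near tumors.

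The 4 libraries held between 10071954 and 90259852 UMIs, and 2 to 21 barcodes were shared by each pair of libraries. Values are given throughout in the order tdTomato+ eGFPneg, tdTomato+ eGFP+, tdTomatoneg eGFP+ and tdTomatoneg eGFPneg unless named. Members had median depths of 7805, 6384.5, 6634 and 5383 UMIs. Levels are counts per 1000000 UMIs (CPM), summed over the members of a library before division, and intervals are exact 95% intervals that cover counting error only. An Xist UMI without a Y-linked UMI was seen in 265 members, the converse in 513, both in 17 and neither in 1180. By library Xist alone was seen in 21, 8, 80 and 156 members and a Y-linked UMI alone in 53, 10, 240 and 210. Cells of either sex were thus present in every library, in unlike proportions.

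Members made up 149 of 4952 kept cells in the tdTomato+ eGFPneg library, or 3.01% (2.55 to 3.52). They made up 44 of 920 cells in the tdTomato+ eGFP+ library, or 4.78% (3.50 to 6.37). The share was 13.5% (12.6 to 14.4), 811 of 6006 cells, in the tdTomatoneg eGFP+ library. In the tdTomatoneg eGFPneg library it was 8.98% (8.45 to 9.53), 971 of 10813 cells. The shares of the first pair of libraries, both tdTomato+, lay below those of the other pair, and the intervals of those pairs did not overlap. The reporter gates decide which cells enter each library. Of all kept cells, 21791 had no UMI of Ptprc or Pax3 and are called stromal. With at least 4 mesothelial genes, 6289 of 21791 stromal cells were found, of which 3366 were over the cycle limit, 2323 over the hypoxic limit and 1375 over both.

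Levels of the genes that chose the members are given as description. Msln, the surface glycoprotein mesothelin, stood at 104, 161, 267 and 401 CPM. Upk3b, a uroplakin of mesothelial surfaces, stood at 347, 540, 390 and 382 CPM, and Krt19 at 395, 333, 448 and 493 CPM. Wt1, the coelomic transcription factor, stood at 292, 188, 257 and 186 CPM. Msln was lowest in the tdTomato+ eGFPneg members and highest in the tdTomatoneg eGFPneg members, whereas Wt1 had no such order. Msln was detected in 30.2%, 36.4%, 57% and 73.6% of members against 1.72%, 0%, 10.0% and 11.7% of melanoma-like cells, whose median depths were 19520, 19794, 21247.5 and 20352.5 UMIs.

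**Figure D1:**
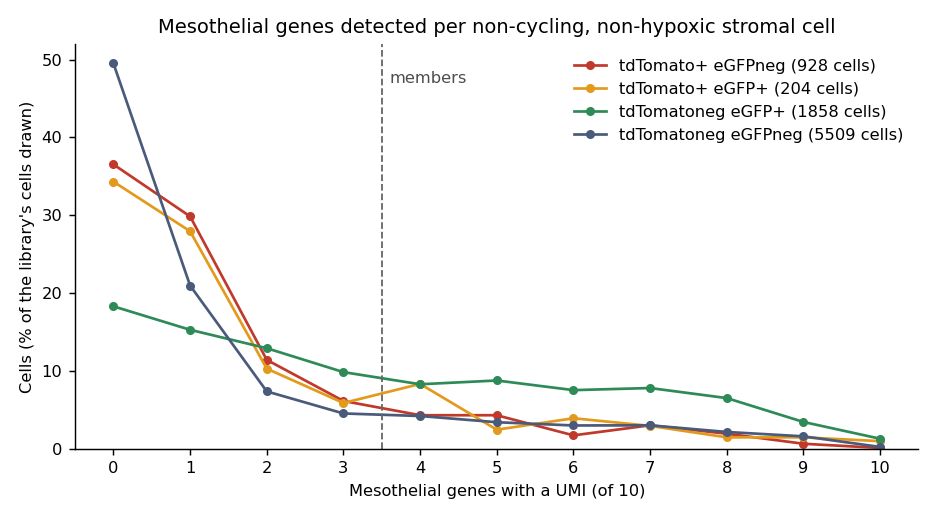
Cells with few cycle and hypoxic inflammatory genes, by the number of the 10 mesothelial genes with a UMI (x axis) and as a percentage of each library's cells drawn (y axis); members have 4 or more. The counts decline without a gap at the limit: 502 cells had 3 genes and 443 had 4.

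Values on either side of the limit lay close together, as description. Cells with 3 mesothelial genes numbered 502 and had 115 CPM of Krt7, 3302 CPM of further mesothelial genes and 976 CPM of 8 fibroblast markers, at a median of 3750.5 UMIs. Cells with 4 numbered 443 and had 157, 4473 and 665 CPM of the same at a median of 4097 UMIs. The keratin and the further mesothelial genes were higher just inside the limit and the fibroblast markers lower, so the limit runs through a continuum of values and not a gap. A lack of Ptprc and Pax3 UMIs was required of every cell on either side of the limit.

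Markers of the other cell types the gate could hold were present in part. Of the 8 fibroblast markers, summed levels ran from 518 to 854 CPM in members against 3493 to 5065 CPM in matrix fibroblasts, cells of the same libraries with at most 1 mesothelial gene and at least 3 fibroblast markers. Pdgfra, a growth factor receptor of fibroblasts, was at 266, 185, 171 and 83.0 CPM in members, and 417 members (21.1%) had 3 or more of the 8 markers while 980 (49.6%) had at most 1. Sums of endothelial markers ran from 45.5 to 70.4 CPM, pericyte from 71.7 to 314, melanoma from 21.2 to 108 and other epithelium from 0 to 138 CPM. Immune markers summed to 2954 to 4289 CPM, mostly Cd74, the MHC class II chaperone. Among single markers, Krt5 was at 0 in every library, Epcam at 0, 0, 0.337 and 2.88 CPM and endothelial Emcn at 0 throughout, so that the endothelial sum came mostly from Esam. In contrast Krt14, the main source of the other epithelium sum, was detected in 1.34%, 0%, 6.41% and 18.6% of members. The pericyte sum came mostly from Des and ran from 53.2 to 222 CPM in matrix fibroblasts. The part of all these markers in the results that follow was not tested.

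Against matrix fibroblasts of the same library, members carried the keratins, junctions and apical genes of a lining cell and less of the interstitial collagens and of the T cell zone chemokines. A gene was counted where it was more than 2-fold higher, or more than 2-fold lower, in each of the 3 libraries with at least 50 cells of both kinds (tdTomato+ eGFPneg, tdTomatoneg eGFP+ and tdTomatoneg eGFPneg). Of 8496 genes read, 503 (5.92%) were higher and 601 (7.07%) lower by this measure, with a median log2 ratio of 0.01. Both kinds of cell were defined by their genes, so these are descriptions. The further mesothelial genes, which the rule did not use, had 14 of 18 higher and 2 lower, with a median of 4.01.

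Krt7, Krt8 and Krt18 are keratins of simple epithelia and of mesothelium. Krt7 was at 88.3, 228 and 411 CPM in members of the 3 libraries and at 0.475, 0.681 and 2.74 CPM in matrix fibroblasts. Nkain4, a membrane protein that binds the sodium pump, was at 947, 842 and 846 CPM against 32.8, 33.3 and 13.9. Dmkn, a secreted protein first known from epidermis, was at 795, 1025 and 994 CPM against 17.1, 17.0 and 22.3. The levels of these genes did not overlap between members and matrix fibroblasts of any of the 3 libraries. Krt18 had a bound of at least 4.17 on the log2 scale in tdTomato+ eGFPneg members, where no UMI was found in matrix fibroblasts, and ratios of 7.94 and 7.59 in the others. The exceptions among these mesothelial genes were Aldh1a2, the enzyme that makes retinoic acid, at 76.8, 89.6 and 137 CPM against 910, 655 and 567, and Gpc3, a glypican, with log2 ratios of -2.18, -1.29 and -1.11. The median Gpc3 ratio was -0.82 in cells with Xist alone and -0.56 in cells with a Y-linked UMI alone.

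Outside the lists, the genes with the largest smallest ratio included Prr15, at 90.9, 97.3 and 119 CPM in members and at most 0.681 CPM in matrix fibroblasts. Pkhd1l1, a large transmembrane protein, had log2 ratios of 6.56, 5.34 and 7.21. Spint2, a serine protease inhibitor of epithelia, had 6.60, 4.88 and 6.25. Lsr, a component of tricellular junctions, had 4.64, 5.04 and 5.90, and Aqp5, a water channel, had 4.83, 4.27 and 7.36. These genes stood in each of the 3 libraries on the same side, as the rule for naming them required.

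**Figure D2:**
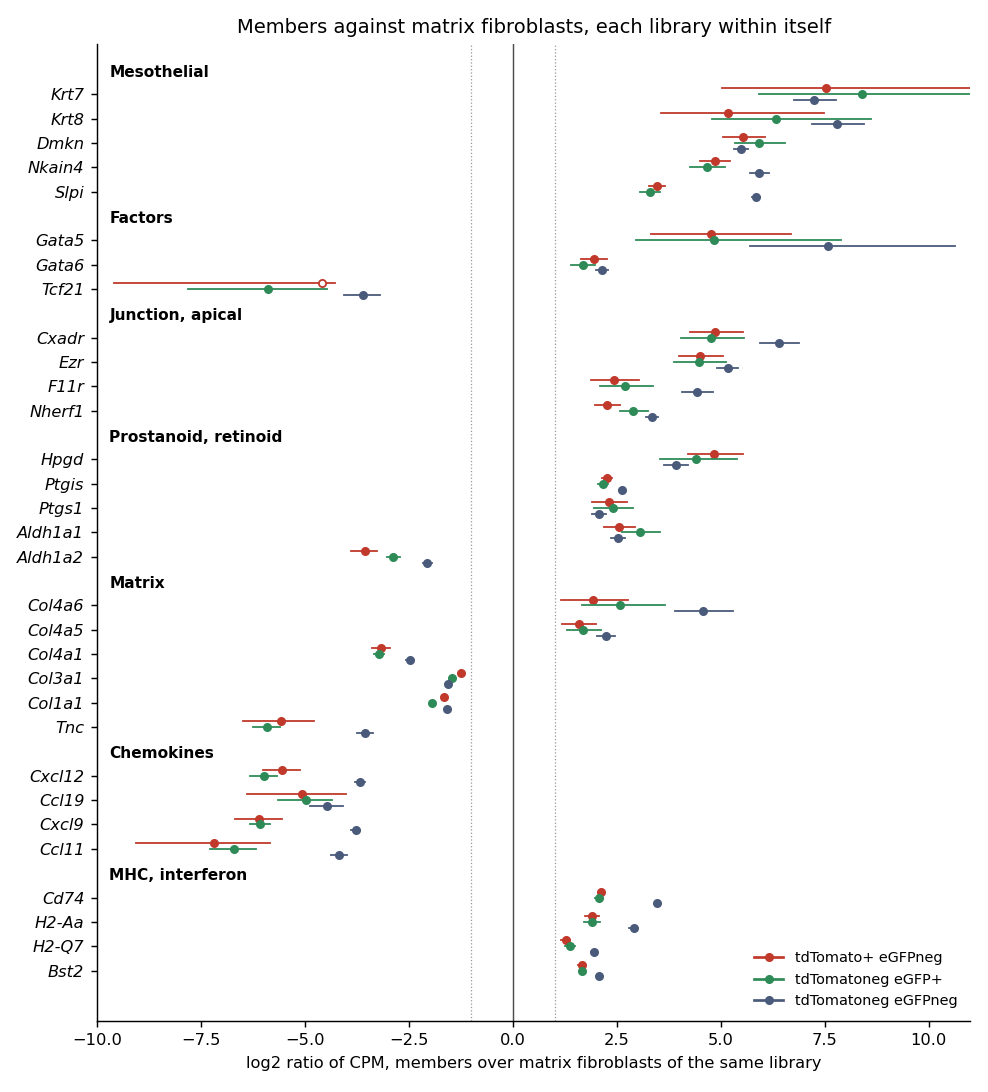
Log2 ratio of CPM, members over matrix fibroblasts of the same library (x axis), for named genes of each list, with 1 point per library and 95% counting intervals. Of the genes drawn, mesothelial, junction and antigen presentation genes lie to the right of 0, and chemokines, interstitial matrix genes, Tcf21 and Aldh1a2 to the left; an open circle marks a bound from a group with no UMI, and intervals are cut at the edge of the axis.

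Many sealing genes and some polarity genes were higher. Of 22 junction genes read, 11 were higher and none lower, with a median log2 ratio of 2.31. Cxadr, a tight junction receptor, was at 331, 294 and 269 CPM against 11.4, 10.9 and 3.2. Cdh3, the cadherin of placenta and epithelia, had log2 ratios of 3.10, 3.63 and 5.14, and Cdh2, the cadherin of mesothelium and mesenchyme, had 2.03, 2.41 and 3.42. Of 14 apical genes, 6 were higher and 1 lower, with a median log2 ratio of 0.62. Ezr, which links the membrane of microvilli to actin, was at 367, 346 and 403 CPM against 16.1, 15.7 and 11.3, and Nherf1, its scaffold partner, had ratios of 2.27, 2.90 and 3.34.

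Transcription factors separated the lining from the mesenchyme in part. Gata6 and Gata5, zinc finger factors of coelomic mesoderm, were among the higher: Gata6 was at 245, 227 and 178 CPM against 63.6, 70.8 and 40.4. Gata4, a relative, was at 1.77, 1.85 and 1.92 CPM in members, too few UMIs for a comparison. Tcf21, a factor of interstitial mesenchyme, was at 0, 0.673 and 7.52 CPM against 63.6, 40.2 and 91.5. The list of 12 read had 3 higher and 2 lower.

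Some enzymes and coat genes known from cavity linings were higher. Of 11 prostaglandin genes 3 were higher and 1 lower, with a median log2 ratio of 0.14. Ptgis, prostacyclin synthase, was at 1589, 1586 and 1374 CPM against 331, 353 and 223, and Ptgs1, the constitutive cyclooxygenase, had log2 ratios of 2.31, 2.41 and 2.07. Hpgd, which degrades prostaglandins, was at 298, 157 and 129 CPM against 10.4, 7.49 and 8.52. The lower one, named after its values were seen, was Ptgir, the prostacyclin receptor, at 5.30, 1.85 and 2.24 CPM against 13.8, 10.2 and 9.77. Among lubricants, Prg4, the boundary lubricant lubricin, was at 68.0, 81.8 and 229 CPM against 11.9, 10.2 and 6.49. Muc16, the cell surface mucin known as CA125, was at 27.4, 41.1 and 72.9 CPM and was listed at 0, 0 and 0.234 CPM in matrix fibroblasts. Has2, hyaluronan synthase, went the other way at 3.53, 1.35 and 2.88 CPM against 47, 42.2 and 37.8. Of 11 lubricant and coat genes, 5 were higher and 3 lower.

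Part of the interstitial matrix was lower. None of 20 genes was higher and 10 were lower, with a median log2 ratio of -1.33. Col1a1 was at 2256, 2197 and 1587 CPM in members and 7074, 8509 and 4747 CPM in matrix fibroblasts. Col3a1, the second fibrillar collagen of tissue stroma, had ratios of -1.26, -1.45 and -1.56. Tnc, the glycoprotein tenascin C, was at 11.5, 14.6 and 36.3 CPM against 544, 889 and 428. Basement membrane split by chain: Col4a1 and Col4a2, the common chains, had ratios of -3.17, -3.23 and -2.48 and of -2.87, -3.24 and -2.34, while Col4a5 had 1.58, 1.69 and 2.23 and Col4a6 had 1.93, 2.58 and 4.56. The list of genes of the change from mesothelium to mesenchyme had 2 of 20 higher and 8 lower; Tagln, an actin-binding protein of contractile cells, was at 67.1, 37.5 and 87.3 CPM against 588, 1187 and 498.

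**Figure D3:**
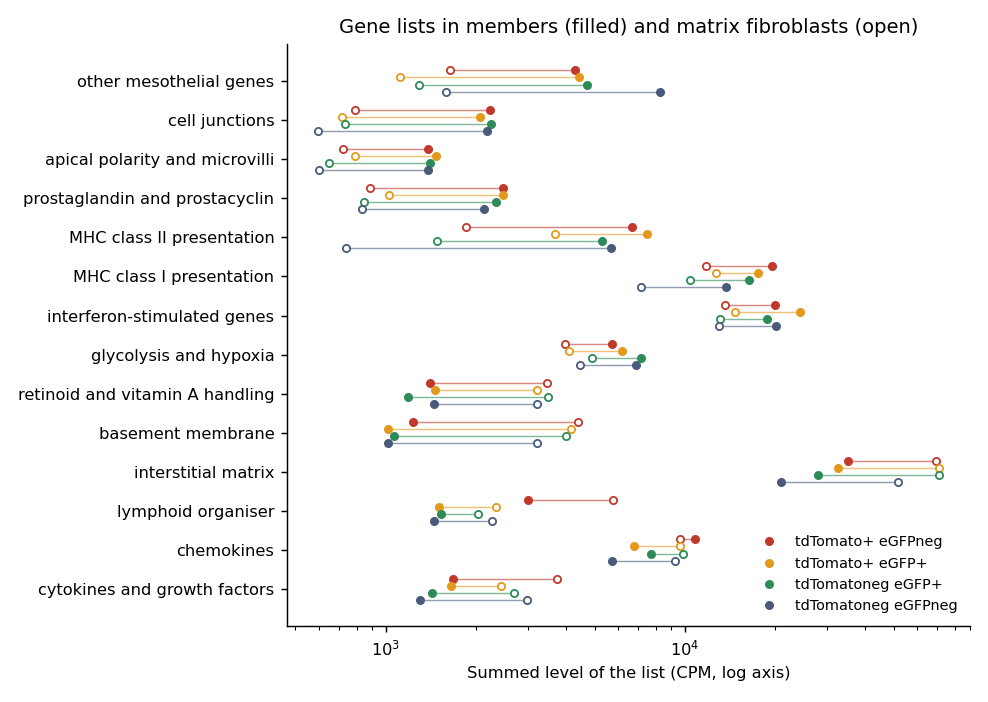
Summed CPM of each gene list (log x axis) in members (filled) and matrix fibroblasts (open), with 1 point per library. The fibroblast marker sum ran from 518 to 854 CPM in members and from 3493 to 5065 CPM in matrix fibroblasts.

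Some signals to lymphocytes were lower. Of 15 lymphoid organiser genes, 2 were higher and 3 lower, with a median log2 ratio of -0.21, and of 17 chemokines 1 was higher and 4 were lower, with a median of -0.19. Ccl19, a chemokine of T cell zones, was at 6.18, 4.04 and 8.96 CPM against 209, 127 and 199. Cxcl12 was at 39.7, 15.2 and 94.2 CPM against 1862, 964 and 1204. Cxcl9, induced by interferon gamma, was at 24.7, 27.6 and 124 CPM against 1689, 1860 and 1701. In contrast Tnfrsf11b, the decoy receptor osteoprotegerin, was at 207, 333 and 369 CPM against 74.1, 63.3 and 33.9. Wnt4, a secreted Wnt, was at 501, 375 and 220 CPM against 91.1, 81.7 and 51.4, and Met, the receptor of hepatocyte growth factor, had ratios of 2.70, 2.60 and 3.98, while Hgf itself had -4.64, -5.26 and -3.99.

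Of 24 cytokines and growth factors 3 were higher and 6 lower, with a median log2 ratio of -0.44. Igf1 was at 171, 160 and 216 CPM against 1803, 1162 and 1304. Fgf7, a growth factor for epithelia, was at 0, 0.673 and 4.64 CPM against 61.7, 50.4 and 67.5. Il6 had log2 ratios of -1.90, -1.55 and -1.72 and Il33, an alarmin, had -1.49, -1.55 and -1.91. Fgf1, which has no secretion signal, was among the higher, with ratios of 2.37, 2.26 and 3.76. Of 26 receptors 1, Met, was higher and 6 were lower, among them Pdgfrb, with ratios of -2.21, -3.36 and -2.74.

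Clotting and retinoid genes split. F3, tissue factor, which starts clotting, was at 18.5, 15.8 and 25.4 CPM against 102, 146 and 87.9. Tfpi, its inhibitor, was lower too, with ratios of -2.29, -2.08 and -1.98, as was Serpine2, a thrombin inhibitor, with -5.80, -6.39 and -2.92. S100a10, a partner of annexin in plasmin formation, was the 1 higher of 12 clotting genes, 4 being lower, at 2346, 2636 and 2853 CPM against 1092, 1087 and 1205. Of 11 retinoid genes 2 were higher and 4 lower: Aldh1a1, another retinaldehyde dehydrogenase, was at 221, 239 and 171 CPM against 37.5, 28.6 and 29.8, and Cyp26b1, which breaks down retinoic acid, had ratios of 3.97, 2.10 and 2.02. Aldh1a3 had -4.34, -4.89 and -3.76. The retinoid enzymes thus differed in kind between the cells, not in a single direction.

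Some stress genes were higher. Hspb1, a small heat shock protein, was at 4603, 3752 and 3576 CPM against 572, 396 and 380. Atf3 and Klf2, immediate early factors that tissue digestion can also induce, had ratios of 1.79, 1.88 and 1.5 and of 1.87, 2.23 and 2.00, and 3 of 20 genes of that list were higher and none lower. Cfb, complement factor B, was at 1129, 952 and 883 CPM against 499, 303 and 300, and was the 1 higher of 9 complement genes, whose median ratio was 0.19; a share of that size is near the background. Egln3, an oxygen-sensing hydroxylase, was at 124, 125 and 86.4 CPM against 7.6, 12.2 and 4.14, and 4 of 23 glycolysis and hypoxia genes were higher and 1 lower. Apart from the lists, Lpl, lipoprotein lipase, and Dpep1, a dipeptidase, were among the genes most below matrix fibroblasts, with ratios of -5.81, -6.31 and -4.18 and of -5.87, -6.95 and -4.27.

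Some antigen presentation genes were higher. Of 8 MHC class II genes read 5 were higher and none lower, with a median log2 ratio of 1.32. Cd74 was at 3487, 2918 and 3413 CPM against 804, 698 and 308. H2-Eb1, a class II beta chain, was at 1089, 797 and 769 CPM against 296, 171 and 80.2. Of 20 class I genes 5 were higher, and H2-Q7, a nonclassical class I gene, was at 1410, 1216 and 760 CPM against 584, 471 and 197; H2-Q6 and H2-Q7 are near-identical copies, so the split of their reads is uncertain. Of 33 interferon-stimulated genes 10 were higher and 1, Ifitm1, was lower. Bst2, the viral tether, was at 2961, 3111 and 3397 CPM against 939, 987 and 805, and Gbp2, a guanylate-binding protein, was at 992, 839 and 922 CPM against 332, 228 and 126. Immune markers ran from 2954 to 4289 CPM in members and from 339 to 1905 CPM in matrix fibroblasts. Most of this sum was Cd74, itself a class II gene named above. In members of the 4 libraries Cd74 made up 3487, 4277, 2918 and 3413 CPM of 3573, 4289, 2954 and 3481. In matrix fibroblasts of the 3 libraries it made up 804, 698 and 308 CPM of 845, 722 and 339. The part of the other immune markers in the class II result was not tested.

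Set beside cycling mesothelial-like cells, which had at least 3 of the cycle genes, members were lower for far more genes than they were higher. Median depths in the 3 libraries were 9972, 10888 and 9657 UMIs in cycling cells and 7805, 6634 and 5383 in members. The part of depth was not tested. Of 8224 genes 25 (0.304%) were higher in members in each of the 3 libraries and 332 (4.04%) lower. Cenpf, a kinetochore protein not in the rule, was at 0, 5.05 and 7.04 CPM in members against 337, 343 and 318; as the cells were chosen by cycle genes, this is a description. How many of the lower genes belong to the cycle was not counted. Igfbp5, a binding protein of insulin-like growth factor, was at 170, 129 and 154 CPM against 46.5, 61.2 and 64.1. Gas6, a ligand of TAM receptors, was at 124, 118 and 197 CPM against 36.5, 44.2 and 56.8, and Slfn5 had ratios of 2.32, 2.04 and 1.71. The median Igfbp5 ratio, 1.27, was 0.93 where members had at most 1 fibroblast marker, read in 2 libraries. Cycling cells were not limited in this way. The further mesothelial genes had 1 of 18 higher and none lower, with a median of 0.30 against -0.02 for all genes.

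Set beside hypoxic inflammatory mesothelial-like cells, with at least 3 of the 8 genes of that name, members had more of some of the lining's products. Median depths were 11412.5, 12904 and 11553 UMIs in those cells and 7805, 6634 and 5383 in members. Both kinds were chosen by genes detected, so deeper cells meet the limits at lower levels. The 10 mesothelial genes of the rule summed to 2755 CPM in members and 1435 CPM in those cells. The part of depth was not tested. Of 7965 genes 36 (0.452%) were higher and 24 (0.301%) lower, 60 in all, and 111, 104 or 92 when the tdTomato+ eGFPneg, tdTomatoneg eGFP+ or tdTomatoneg eGFPneg library was left out and a gene had to differ in fewer libraries. Of 18 further mesothelial genes 4 were higher: Efemp1, an elastic fibre protein, Rspo1, a Wnt enhancer, Muc16 and Igfbp5. Igfbp5 was at 170, 129 and 154 CPM against 33.6, 46.7 and 36.3. Prg4 was at 68.0, 81.8 and 229 CPM against 19.4, 30.8 and 106, and Thbd, thrombomodulin, which restrains clotting, was at 141, 150 and 133 CPM against 65.2, 57.6 and 43.0. Csf3, the granulocyte growth factor, was lower in members at 28.2, 32.0 and 28.2 CPM against 124, 79.9 and 99.3, and Inhba, an activin chain, had ratios of -1.43, -1.89 and -1.70. Spp1, osteopontin, was at 7.94, 6.23 and 27.4 CPM in members against 28.0, 45.1 and 209, and Hp, haptoglobin, an acute phase protein, was at 110, 77.1 and 102 CPM against 255, 265 and 302. Clec3b, the plasminogen binder tetranectin, was higher in members, with ratios of 1.22, 1.27 and 1.65. Ero1a and Ndrg1, both induced by low oxygen, had ratios of -1.13, -1.31 and -1.5 and of -1.02, -1.08 and -1.03. As the cells were chosen by hypoxic inflammatory genes, the ratios of hypoxia and inflammatory genes here are descriptions. Cells with a Y-linked UMI alone had median ratios short of 2-fold for Efemp1 (0.63), Clec3b (0.81), Csf3 (-0.95), Inhba (-0.89) and Hp (-0.92). Where members had at most 1 fibroblast marker, the ratios of Efemp1 (0.95), Clec3b (0.93) and Ndrg1 (-0.73) were short of it. The hypoxic inflammatory cells were not limited in this way, and 2 libraries were read.

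Members of the 4 sorted populations were compared for all genes, and Cxcl13, the keratins and Trf are described first. Levels were set against the tdTomatoneg eGFPneg members, and a gene was counted past 2-fold in either direction. For tdTomato+ eGFPneg members 348 of 8263 genes (4.21%) were higher and 318 (3.85%) lower. For the 44 tdTomato+ eGFP+ members 419 of 8213 (5.10%) were higher and 736 (8.96%) lower, and for tdTomatoneg eGFP+ members 60 of 8071 (0.743%) were higher and 166 (2.06%) lower. With 44 cells the middle comparison rests on few UMIs per gene. The counts moved with the lowest level read, which was 10 CPM in the higher group: for tdTomatoneg eGFP+ members they came to 53 genes at 50 CPM and 1373 at 1 CPM, against 226. The comparisons share the tdTomatoneg eGFPneg members, so their values are given side by side and no overlap is read from them.

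Sequences before the start sites of 3 genes that carry these differences are shown as RefSeq windows of 250 bases on GRCm38.p6, in the direction of the gene; the deposited counts used GRCm39, so the coordinates apply to GRCm38.p6. Krt7 is at chr15:101412153-101412402 (+ strand), Krt18 at chr15:102027966-102028215 (+ strand) and Cxcl13 at chr5:95956689-95956938 (+ strand). Capitals mark matches, on either strand, to the promoter motif TATAAA, to the Sp1 motif GGGCGG, to the AP-1 motif TGANTCA and to the TEAD motif GGAATG, none of which overlap.
Krt7: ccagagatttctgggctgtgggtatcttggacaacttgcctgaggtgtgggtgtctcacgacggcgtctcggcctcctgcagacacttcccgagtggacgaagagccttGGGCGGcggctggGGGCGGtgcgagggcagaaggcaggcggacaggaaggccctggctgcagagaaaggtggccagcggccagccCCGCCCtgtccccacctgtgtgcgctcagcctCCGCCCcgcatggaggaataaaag
Krt18: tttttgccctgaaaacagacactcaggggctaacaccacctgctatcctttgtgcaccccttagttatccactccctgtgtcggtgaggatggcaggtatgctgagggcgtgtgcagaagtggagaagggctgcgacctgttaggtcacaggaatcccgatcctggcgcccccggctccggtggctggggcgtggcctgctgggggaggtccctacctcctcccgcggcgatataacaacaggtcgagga
Cxcl13: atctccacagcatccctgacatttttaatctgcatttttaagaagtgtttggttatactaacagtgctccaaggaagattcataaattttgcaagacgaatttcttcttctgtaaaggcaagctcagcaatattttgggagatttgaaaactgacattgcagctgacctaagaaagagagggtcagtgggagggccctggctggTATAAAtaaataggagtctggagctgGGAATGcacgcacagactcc
Of 32851 windows in the table, 12.4% held TATAAA, 32.7% GGGCGG, 6.75% TGANTCA and 12.6% GGAATG. The Krt7 window held GGGCGG at 141 and 128 bases before the start and, on the other strand, at 56 and 24 bases. The Cxcl13 window held TATAAA at 46 and GGAATG at 20 bases before the start. The Krt18 window held none of these letters, which says nothing of the factors themselves.

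Cxcl13, the B cell chemokine, was at 1582, 239, 89.7 and 69.6 CPM in members. It was higher in both tdTomato+ libraries, which were gated on its own reporter, than in the others. The gate sets no order between the tdTomato+ libraries. By flow cytometry, the authors report brighter tdTomato in tdTomato+ eGFP+ than in tdTomato+ eGFPneg fibroblasts, the reverse of the Cxcl13 order here. Their values are of reporter protein in PDPN-high fibroblasts as a whole, not of RNA in members. Cxcl13 was detected in 64.4%, 31.8%, 12.5% and 9.37% of members, and in 38.1%, 22.7%, 6.08% and 4.58% after each cell was thinned to 1500 UMIs. Melanoma-like cells had it in 41.4%, 7.14%, 5.56% and 9.49% of cells at 72.1, 13.9, 4.86 and 31.7 CPM. At 1500 UMIs the melanoma-like shares were 6.90%, 0%, 1.12% and 2.57%. The unthinned shares of the tdTomatoneg eGFPneg library compare members at a median of 5383 UMIs with far deeper melanoma-like cells, and at equal depth members were at 4.58% and melanoma-like cells at 2.57%. Of 435 Cxcl13 UMIs in those members 78 came from 1 cell. The shares in both tdTomato+ libraries lay further above those of melanoma-like cells. Matrix fibroblasts of the tdTomato+ eGFPneg library had 2619 CPM, more than the members there.

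**Figure D4:**
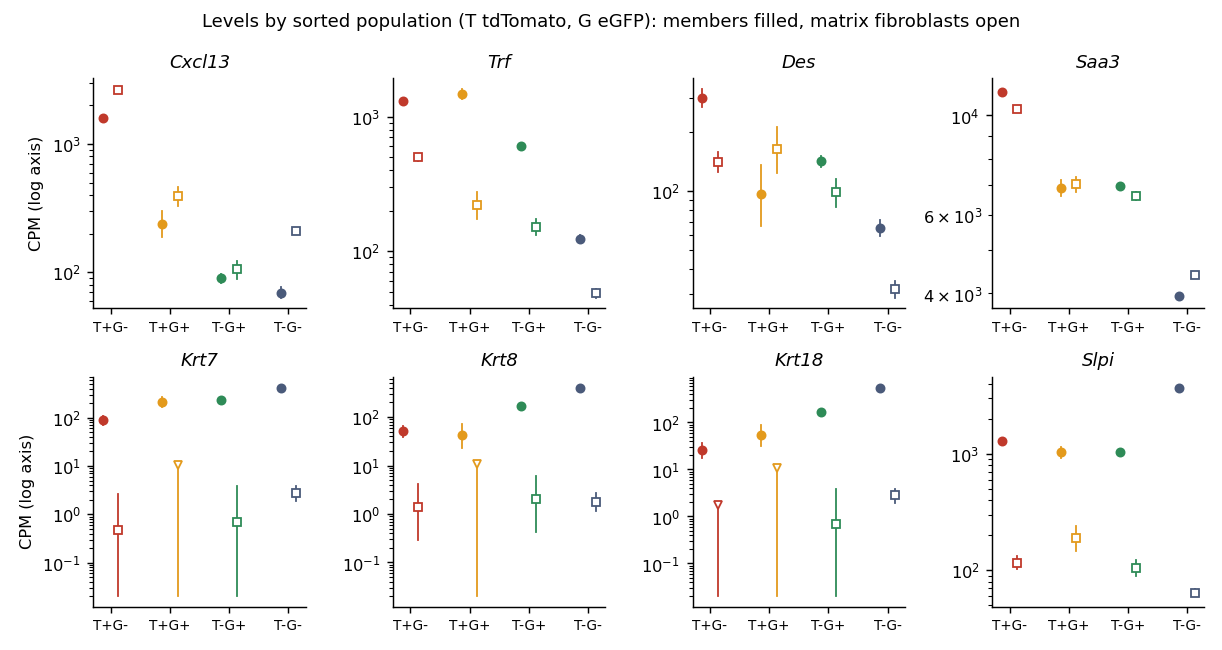
CPM (log y axis) of named genes in members (filled) and matrix fibroblasts (open) of the 4 sorted populations (x axis; T tdTomato, G eGFP), with 95% counting intervals; a group at 0 is drawn as an open triangle at the upper limit. Krt18 stands at 25.6 CPM in tdTomato+ eGFPneg members and at 542 CPM in tdTomatoneg eGFPneg members.

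Keratins were lower in members of every reporter-positive population. Krt18 was at 25.6, 54.6, 167 and 542 CPM, with log2 ratios of -4.41, -3.31 and -1.70 to the last. It was detected in 8.05%, 11.4%, 29.5% and 57.2% of members. Krt8, its partner in the filament, was at 51.2, 42.4, 165 and 396 CPM, and Krt7 was at 88.3, 209, 228 and 411 CPM. The 3 keratins stood in the same direction in all reporter-positive libraries, and the Krt7 ratios of tdTomato+ eGFP+ and tdTomatoneg eGFP+ members (-0.98 and -0.85) did not pass 2-fold. Krt14, a keratin of stratified epithelium, was at 7.06, 0, 30.3 and 135 CPM, while Krt5 was at 0 in every library. Of 18 further mesothelial genes 8, 7 and 4 were lower and none higher in the 3 comparisons, with medians of -0.68, -0.58 and -0.32 against 0.08, -0.04 and 0.07 for all genes.

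Trf, transferrin, the iron carrier of plasma, ran the other way. It was at 1308, 1467, 607 and 124 CPM in members and at 499, 219, 151 and 48.6 CPM in matrix fibroblasts. The log2 ratios to tdTomatoneg eGFPneg members were 3.40, 3.57 and 2.29. It was detected in 86.6%, 86.4%, 58.8% and 31.6% of members, and in 63.9%, 59.1%, 36.2% and 11.9% at 1500 UMIs, where melanoma-like cells had 12.1%, 7.14%, 23.6% and 14.7%. At that depth the share in tdTomatoneg eGFPneg members, 11.9%, was no larger than the 14.7% of melanoma-like cells in that library. The source of Trf UMIs in melanoma-like cells was not tested. In tdTomatoneg eGFP+ members the ratio was 0.66 among cells with Xist alone and 2.35 among cells with a Y-linked UMI alone, so that the call was lost in the former. Trf is not in the lists and was chosen after its values were seen.

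Secreted and matrix genes also differed. Slpi, a leukocyte protease inhibitor, was at 1281, 1037, 1030 and 3690 CPM, with ratios of -1.53, -1.83 and -1.84, and the ratio in tdTomato+ eGFPneg was -0.60 among cells with a Y-linked UMI alone and -0.83 among those with at most 1 fibroblast marker. Prg4 was at 68.0, 54.6, 81.8 and 229 CPM. Des, the muscle intermediate filament desmin, was at 300, 97.0, 142 and 65.1 CPM, and only in tdTomato+ eGFP+ members was its ratio, 0.58, under 2-fold; in tdTomatoneg eGFP+ members with a Y-linked UMI alone it was 0.89. Col3a1 was 2-fold higher in tdTomato+ eGFPneg members (1.03) and Fn1, fibronectin, likewise (1.03), but short of it in cells with a Y-linked UMI alone, at 0.69 and 0.38. Of these members 38.3% had at least 3 of the 8 fibroblast markers, against 20.2% of tdTomatoneg eGFPneg members, and the part of this in the matrix values was not tested. Cyp7b1, an oxysterol enzyme, had a ratio of 1.70 in tdTomato+ eGFPneg members and of 0.09 in the 38 of them with at most 1 fibroblast marker, set against the like cells. Outside the lists Fxyd3, an ion pump regulator, was at 5.30, 6.06, 14.6 and 98.7 CPM, and Ebf1, a transcription factor, had ratios of -3.10 and -3.34 in tdTomato+ eGFPneg and tdTomatoneg eGFP+ members. Of 19 interstitial matrix genes 3 were higher and 1 lower in tdTomato+ eGFPneg members.

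Inflammatory genes were led by Saa3, serum amyloid A, at 11269, 6896, 6959 and 3957 CPM in members, with log2 ratios of 1.51, 0.80 and 0.81, the first being 0.98 in cells with a Y-linked UMI alone. Saa3 was chosen after its values were seen, and matrix fibroblasts had 10329, 7015, 6610 and 4401 CPM, with ratios of members to them of 0.13, 0.07 and -0.15 in the 3 larger libraries. Ccl2, a monocyte chemokine, was at 4498, 2898, 2992 and 1940 CPM, and Cxcl10, induced by interferon, was at 1720, 1103, 1242 and 758 CPM. In tdTomato+ eGFPneg members their ratios were 1.21 and 1.18, and 0.42 and 0.50 where at most 1 fibroblast marker was allowed. Cxcl9 ran in the opposite direction at 24.7, 9.09, 27.6 and 124 CPM, with ratios of -2.33, -3.77 and -2.17 that came to -0.54 and -0.95 in the first and last comparison after thinning. Il1r1, the interleukin 1 receptor, had ratios of 1.78, 1.38 and 1.03, and 0.78 in tdTomatoneg eGFP+ members with a Y-linked UMI alone, and H2-M2, a nonclassical class I gene, had 2.46, 2.69 and 1.82, the last being 0.54 in such cells. Of 17 chemokines in tdTomato+ eGFPneg members 4 were higher and 5 lower.

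Members also varied with how many mesothelial genes they carried. After thinning members to 3000 UMIs (319 of 1975 were shallower and left out), cells were binned by mesothelial genes then detected, 0 to 3, 4 to 5 and 6 to 10, in the 3 larger libraries. Krt18 went from 0 to 0 to 156 CPM across the bins of tdTomato+ eGFPneg members. It went from 55.6 to 152 to 374 CPM in tdTomatoneg eGFP+ members and from 357 to 558 to 913 CPM in tdTomatoneg eGFPneg members. Krt18 was thus higher in the cells with more mesothelial genes in each library. The bin of 6 to 10 genes of the tdTomato+ eGFPneg library held 30 cells.

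Cxcl13, Saa3 and Ccl2 went the other way. In tdTomato+ eGFPneg members Cxcl13 went from 2444 to 1298 to 322 CPM. In tdTomatoneg eGFP+ members it went from 209 to 56.7 to 10.6 CPM, and in tdTomatoneg eGFPneg members from 109 to 99.9 to 24.6 CPM. Saa3 went from 15069 to 10213 to 5144, from 9140 to 6348 to 3730 and from 5562 to 2956 to 1920 CPM. Trf differed by library: it went from 1101 (956 to 1261) to 1440 to 1600 (1349 to 1884) CPM in tdTomato+ eGFPneg members, from 583 to 621 to 614 CPM in tdTomatoneg eGFP+ members and from 115 to 117 to 113 CPM in tdTomatoneg eGFPneg members, where it was detected in no larger share of cells than in melanoma-like cells. Whether these courses differ between libraries was not tested. The bins were built on mesothelial genes, so a marker of the same programme must track them in part.

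**Figure D5:**
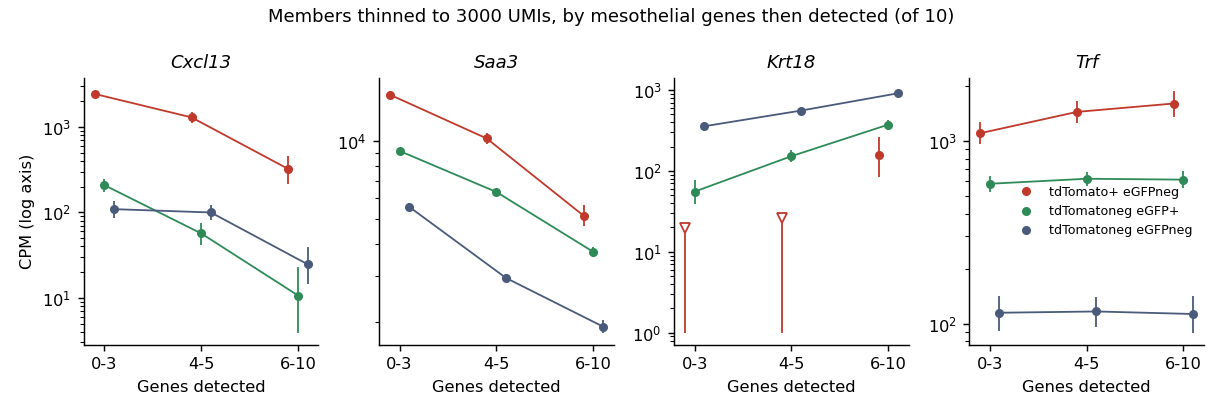
CPM (log y axis) of named genes in members thinned to 3000 UMIs, by mesothelial genes then detected (x axis), in 3 libraries; lines join the bins of a library, and open triangles mark upper limits of bins at 0. Cxcl13 is lower and Krt18 higher in the bin of 6 to 10 genes than in the bin of 0 to 3 in each library drawn.

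Among genes read within a library after thinning to 1500 UMIs, the median variance over mean of 2331 genes was 1.06, 1.07 and 1.07 in the 3 libraries. Slpi had 19.5, 11.4 and 32.3, and the top 10% of cells held 62.5%, 55.2% and 68.4% of its UMIs. Cxcl13 had 10.3 in tdTomato+ eGFPneg members, where the top 10% held 69.1% of its UMIs. Mgp, an inhibitor of calcification, had 10.8, 11.3 and 9.24 and was detected in 33.3%, 40.4% and 61.2% of cells; Mgp was chosen after its values were seen.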

How the data were processed

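Single-cell suspensions of sorted tumor stroma were profiled with 10x Genomics 3′ v3.1 chemistry, 1 library per sorted population. The authors deposited filtered matrices of whole-number UMI counts per gene and cell, made with Cell Ranger (version 10.0.0 in the submitters' processing notes, 8.0.0 in the file header) and STAR against GRCm39; the reporter transgenes are not in the gene list of 33696 genes (33670 symbols).

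Cells were grouped with Python 3.11.15, scipy 1.17.1 and scanpy 1.11.5. Members and gene lists were chosen with earlier results of these data known. Cells were kept at 500 to 6000 genes and at most 10% mitochondrial UMIs. Counts were summed over cells per library, divided by total UMIs and given per 1000000 (CPM); a gene was read where the higher group had at least 10 CPM, and 41 genes of the rules and markers for the groups were left out. Ratios have exact conditional binomial intervals, CPM exact Poisson intervals and shares Clopper-Pearson intervals; where a group had no UMI, 3 counts were taken as its floor and the ratio is a bound. The ratio script was tested on simulated counts. Named genes were, for each list, those with the highest level or the largest ratio past 2-fold, and outside the lists up to 10 in each direction with at least 50 CPM. Doublets were not removed from the main values: Scrublet's threshold called 3, 5, 0 and 1 cells and so had not worked, and an alternative removed the top-scored 210, 7, 310 and 1016 cells, of which 1, 0, 15 and 66 were members. Depth ran from 10071954 to 90259852 UMIs per library. The other alternatives were the number of mesothelial genes, level floors, sex marks, thinning, equal weight per cell, leaving out each library and, chosen after seeing the data, at most 1 fibroblast marker, counting intervals and members matched after thinning. One result on a single gene is not reported here.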

Additional observations from a re-analysis of the deposited data

Results flagged for a closer look

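In each of the 3 comparisons with tdTomatoneg eGFPneg cells, 3 named genes went 1 way in members and the opposite way in matrix fibroblasts; the difference was not tested. Slpi had log2 ratios of -1.53, -1.83 and -1.84 in members of the tdTomato+ eGFPneg, tdTomato+ eGFP+ and tdTomatoneg eGFP+ libraries and of 0.86, 1.57 and 0.71 in matrix fibroblasts. Ccn3, a matricellular protein, had 2.49, 1.95 and 1.04 in members and -0.96, -0.55 and -1.23 in matrix fibroblasts, and its level in members was 110, 75.8, 40.4 and 19.7 CPM over the 4 libraries. Tnc had -1.66, -2.0 and -1.31 in members, the second a bound from a library with no UMI, and 0.35, 1.14 and 1.06 in matrix fibroblasts. The share of members with at least 3 fibroblast markers was 38.3%, 27.3%, 18.7% and 20.2%, and its part in these values was not tested. With at most 1 fibroblast marker the Slpi and Ccn3 ratios of tdTomato+ eGFPneg members were -0.83 and 0.59. The Ccn3 ratio of tdTomatoneg eGFP+ members was 0.75 with at most 1 fibroblast marker, 0.98 with a Y-linked UMI alone and 0.85 in members matched after thinning. The Tnc ratios rest on few UMIs and none of the 3 stayed past 2-fold throughout. That of tdTomato+ eGFPneg members came to -0.45 after thinning, -0.83 with doublets removed, -0.44 with at most 1 fibroblast marker and -0.98 with equal weight per cell. That of tdTomato+ eGFP+ members came to -0.12 after thinning and -0.46 in matched members, and that of tdTomatoneg eGFP+ members to -0.13 in matched members and -0.71 with a Y-linked UMI alone.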

How the results depend on the processing

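No paired analysis was possible because each population was 1 library and no label ties cells or animals across libraries. The share of members, 3.01%, 4.78%, 13.5% and 8.98% by library and 8.70% in all, came to 4.16%, 16.6% and 11.3% in the tdTomato+ eGFPneg, tdTomatoneg eGFP+ and tdTomatoneg eGFPneg libraries and 10.9% in all at 3 or more mesothelial genes. At 5 or more it came to 2.20%, 2.93%, 10.9% and 6.83%, and 6.75% in all. With the rule applied after thinning to 3000 UMIs the share came to 9.91% in tdTomatoneg eGFPneg cells, 759 of 7657. Cells with fewer UMIs were left out of that share. At a floor of 50 CPM the counts of genes past 2-fold came to 513 (main 1104) against matrix fibroblasts, 133 (357) against cycling cells, 20 (60) against hypoxic inflammatory cells, and 170 (666), 189 (1155) and 53 (226) in the tdTomato+ eGFPneg, tdTomato+ eGFP+ and tdTomatoneg eGFP+ comparisons. At 1 CPM they came to 124 against hypoxic inflammatory cells and 2142, 2402 and 1373 between libraries. The hypoxic comparison came to 14 in cells with a Y-linked UMI alone. It came to 324 with Xist alone and 159 where members, and not the other cells, had at most 1 fibroblast marker. With a library left out it came to 92 to 111. The counts of 324, 159 and 92 to 111 were read in 2 libraries, so that a gene had to differ in fewer. With a library left out the counts against matrix fibroblasts were 1233 to 1342 and those against cycling cells 386 to 418. Between libraries the tdTomato+ eGFPneg count came to 1230 in cells with a Y-linked UMI alone, 1344 when thinned, 1845 with at most 1 fibroblast marker and 1109 in members matched after thinning. The tdTomato+ eGFP+ count came to 1794 with at most 1 fibroblast marker, 495 where the counting interval had to exclude no difference and 1940 in members matched after thinning. The tdTomatoneg eGFP+ count, 60 higher and 166 lower, came to 988 with Xist alone, 346 with a Y-linked UMI alone, 388 when thinned (178 higher, 210 lower) and 391 with at most 1 fibroblast marker. The cause of these shifts was not tested. No named gene past 2-fold changed direction in the alternatives run. Of the alternative values of all named genes, 1787 lay within the main counting interval and 296 outside it. Where several libraries were read, the interval ran from the lowest to the highest limit over them. The 1787 include the level floors and the counting-interval setting. These change only which genes are counted, so they return the main ratio and lie inside by construction. Between libraries a minimum of 50 cells was applied to the splits by sex mark alone, so cells with Xist alone were not run for tdTomato+ eGFPneg, nor either mark for tdTomato+ eGFP+. The counts with at most 1 fibroblast marker rest on 38 and 20 members of these libraries. Depth limits genes under about 10 CPM and the 44 tdTomato+ eGFP+ members in particular.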

Other observations

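Some values of members rested on single cells. Of 28 Angptl7 UMIs in tdTomato+ eGFP+ members 24 came from 1 cell (85.7%), and of 76 Igkc UMIs in tdTomato+ eGFPneg members 65 came from 1 cell. Both genes were chosen after their values were seen. In the tdTomatoneg eGFPneg library Ccl21a, a lymphoid chemokine, was at 12.8 CPM but was detected in 0.103% of members, and it was at 0.883, 0 and 0 CPM in the other three.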
